A study of Rattus norvegicus with 2 samples.

Results

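Histones and the enzymes that act on chromatin were compared between 2 RNA sequencing libraries of the rat line RBL-2H3, which was derived from a basophilic leukemia and carries the high-affinity IgE receptor. Members were chosen by gene name: the histone names, and the names of the Chd, Kmt, Kdm, Setd, Hdac, Smarc, Arid and Kat families. These families are called enzymes here, although the Arid names and some Smarc names are DNA-binding proteins or subunits and not enzymes themselves. Of 32 histone names and 82 enzyme names in the deposited table, 25 histones and all 82 enzymes had 20 or more reads over both libraries, which makes 107 of the 12102 genes over that minimum. One library was made from untreated cells and the other from cells given IgE, both wild type. The dose, the duration and any antigen are not stated in the labels. Each condition is 1 library of 1 cell line with no replicate culture, so no difference below has a replicate check. No test of the conditions is given here beyond the p-values quoted from the authors' deposited table, which compare the 2 libraries.

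A nucleosome wraps DNA around a core of the histones H2A, H2B, H3 and H4, and the linker histone H1 binds where the DNA enters and leaves it. Most core histone genes lie in clusters and are expressed in S phase, and their messages end in a stem-loop rather than a poly(A) tail. Variant histones such as H3.3, H2A.Z and H1.0 are made outside S phase as well, from messages that carry a poly(A) tail. Both libraries were prepared by poly(A) selection, so counts of the clustered genes come from whatever part of their messages was captured. Chromatin enzymes write marks on histone tails (methyltransferases and acetyltransferases), erase them (demethylases and deacetylases), or move nucleosomes with the energy of ATP (the CHD and SWI/SNF remodellers).

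The untreated library held 20917968 counted reads and the IgE library 26268330. Values are CPM, read counts brought to a common library size, and log2 folds are IgE over untreated, so that a positive value means a higher level with IgE. Each interval is an exact 95% interval of the read ratio. It covers only the error of counting, and PCR copies of a molecule may be among the reads. All 8 basophil and mast cell markers looked at were present, from Fcer1g (38.0 and 44.1 CPM) to Gata2 (2482 and 2301 CPM). Of the macrophage markers, Cd68 and Csf1r had 83 reads each over both libraries, and the neutrophil marker Ngp had 65. Histones accounted for 0.224% of reads without and 0.237% with IgE, and the enzymes for 1.14% and 1.06%.

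The stretches of 160 bases just before the annotated start are shown for the 4 histone genes with the most reads (H3f3a, H1f0, H2az1 and H1f2), for the pair named in the authors' selected list (H1f1 and H2ac12), and for H2ac10, which shares its upstream DNA with another member. They come from RefSeq on build GRCr8, each written 5′ to 3′ on the gene's own strand. Capitals mark matches on either strand to the CCAAT box (CCAAT, or ATTGG), the GC box (GGGCGG, or CCGCCC) and the TATA box (TATAAA). In H3f3a and H2az1 a pair of GC boxes overlaps within 1 capital run. H3f3a is at chr13:95076696-95076855 (minus strand), H1f0 at chr7:112473120-112473279 (plus), H2az1 at chr2:229028935-229029094 (plus), H1f2 at chr17:41820454-41820613 (minus), H1f1 at chr17:41794869-41795028 (minus), H2ac12 at chr17:47182033-47182192 (plus) and H2ac10 at chr17:41999056-41999215 (minus).
H3f3a: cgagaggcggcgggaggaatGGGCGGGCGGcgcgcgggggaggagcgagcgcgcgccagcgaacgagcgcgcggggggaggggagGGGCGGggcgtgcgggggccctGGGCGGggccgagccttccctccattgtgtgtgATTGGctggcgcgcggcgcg
H1f0: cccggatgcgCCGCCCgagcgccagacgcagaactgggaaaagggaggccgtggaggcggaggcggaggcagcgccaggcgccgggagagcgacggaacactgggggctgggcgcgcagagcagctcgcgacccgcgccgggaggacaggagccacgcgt
H2az1: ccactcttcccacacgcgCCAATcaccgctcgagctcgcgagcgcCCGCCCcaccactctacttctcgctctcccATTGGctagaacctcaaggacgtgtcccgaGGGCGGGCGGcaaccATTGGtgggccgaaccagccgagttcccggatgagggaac
H1f2: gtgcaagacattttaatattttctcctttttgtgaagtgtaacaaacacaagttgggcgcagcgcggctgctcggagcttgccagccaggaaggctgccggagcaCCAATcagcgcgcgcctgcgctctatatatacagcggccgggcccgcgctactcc
H1f1: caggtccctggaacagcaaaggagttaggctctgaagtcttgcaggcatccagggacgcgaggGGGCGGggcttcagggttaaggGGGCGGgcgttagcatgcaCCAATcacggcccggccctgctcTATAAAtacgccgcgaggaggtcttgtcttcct
H2ac12: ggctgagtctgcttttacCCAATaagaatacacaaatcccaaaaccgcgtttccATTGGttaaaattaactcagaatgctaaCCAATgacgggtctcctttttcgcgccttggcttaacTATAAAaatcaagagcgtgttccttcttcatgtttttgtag
H2ac10: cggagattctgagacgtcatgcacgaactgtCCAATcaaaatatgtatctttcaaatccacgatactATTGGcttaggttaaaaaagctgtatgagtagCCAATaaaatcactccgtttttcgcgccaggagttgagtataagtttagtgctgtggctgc

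The clustered and the variant histone genes differed in these letters. Over the 250 bases before each start, a CCAAT box stood in 18 of 18 windows of clustered histone genes and in 5 of 6 windows of variant genes, against 36% of 100 enzyme windows and 34% of all 33469 RefSeq windows. GC boxes stood in 5 of 6 variant windows (83.3%) and in 4 of 18 clustered ones (22.2%), against 61% of enzyme windows and 30.5% of all. The TATA box was found in 10 of 18 clustered windows (55.6%) and 1 of 6 variant windows, against 6% of enzyme windows and 12.9% of all. The octamer ATTTGCAT, known from H2B promoters, was in 4 of 18 clustered windows (22.2%), 0 of 6 variant windows, 2% of enzyme windows and 1.56% of all. It stood in 2 of 6 H2B windows and in 4 of the 11 windows of clustered H2A and H2B genes, so not all matches were in H2B genes. Windows were held for 24 of the 25 histones and 69 of the 82 enzymes, some enzymes with several starts. These matches describe the exact letters only, so near forms, such as the TATA-like run tatatata in the H1f2 stretch, were not counted. H2ac10 and the H2B gene Hist1h2bg stand on opposite strands and their 300-base windows share 287 bases. H2ac10 had 26 reads untreated and 38 with IgE, and Hist1h2bg had 27 and 21, so that the log2 folds of 0.22 (-0.53 to 1.00) and -0.67 (-1.58 to 0.19) had opposite signs with intervals that both include 0.

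Among the histones, reads were concentrated in a few genes. H3f3a, H1f0, H2az1 and H1f2 together took 94.1% of all histone reads. Of these only H1f2 is a clustered gene, and the 7 variant names together stood at 2104 CPM untreated and 2251 CPM with IgE, against 131 and 128 CPM for the 18 clustered names. Read numbers also depend on transcript length, so these sums are not a ranking of transcripts per cell. Of the 25 histones, 2 were higher with IgE by 2-fold or more (8.0%) and 2 were lower by as much, against 1.33% and 1.3% of all genes. All 4 of these had 20 to 99 reads, and in that class 4 of 11 histones were at least 2-fold apart, against 16.3% of the 1735 genes with as few reads. The median log2 fold of the histones was -0.04, beside 0.00 for all genes, with 13 below 0 and 12 above.

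**Figure D1:**
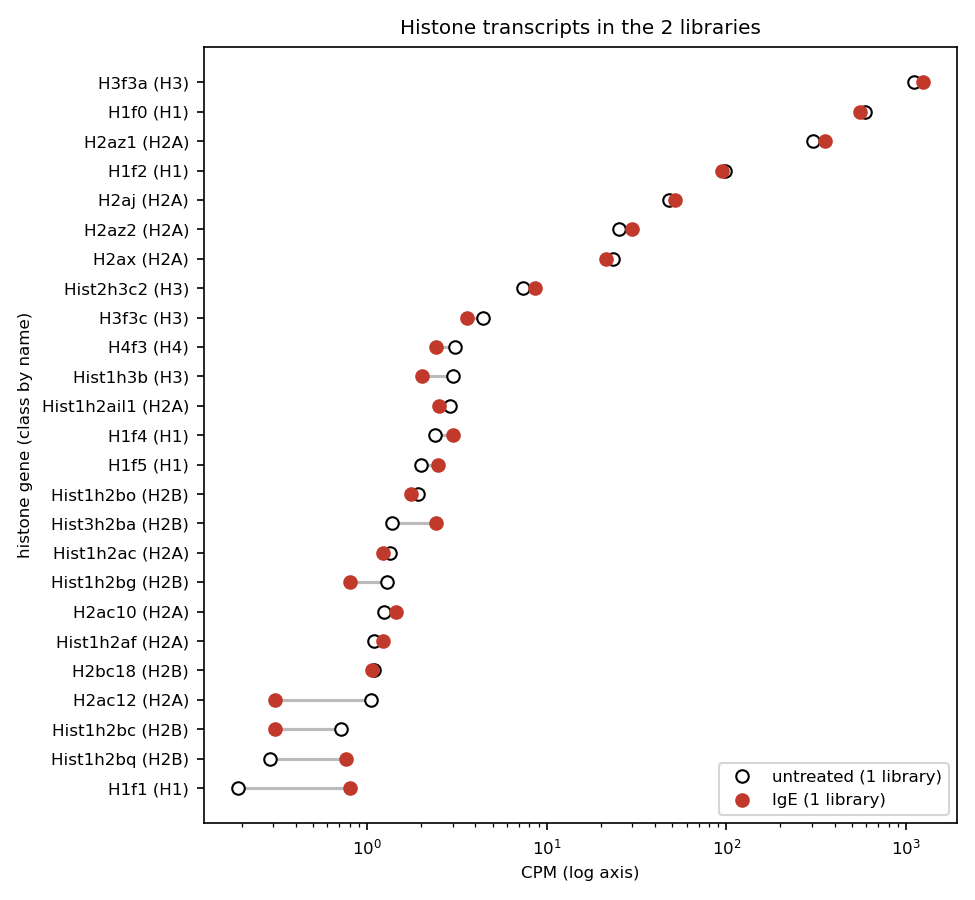
CPM of the 25 histone genes in the untreated (open) and IgE (filled) library on a log axis, 1 library each, with the class read from the name. H3f3a, H1f0 and H2az1 stand near the right end at 303 CPM or more with both points close together, while the 4 genes with the widest gaps lie at about 1 CPM or less.

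H3f3a encodes the replication-independent H3.3 and was the most counted histone. It stood at 1109 CPM untreated and 1239.8 CPM with IgE, from 23237 and 32501 reads. The log2 fold was 0.16 (0.14 to 0.19), a higher level with IgE by an amount far below 2-fold. H3f3c, annotated by RefSeq as a pseudogene, had 93 and 94 reads and a log2 fold of -0.31 (-0.74 to 0.12). Reads from near-identical H3.3 copies cannot be assigned with certainty. The clustered H3 gene Hist2h3c2, a name that occupied 6 identical rows in the deposited table, had 155 and 226 reads (log2 fold 0.22, -0.08 to 0.53). Hist1h3b went the other way, with 63 reads untreated and 53 with IgE (-0.57, -1.13 to -0.02). Summed over the 4 H3 names the log2 ratio was 0.16 (0.13 to 0.18), but H3f3a made up 98.8% of those reads. Without it the ratio was -0.06 (-0.28 to 0.16).

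H2az1 and H2az2 encode the H2A.Z variants, which replace H2A near promoters. H2az1 stood at 303 CPM untreated and 353 with IgE (6342 and 9254 reads, log2 fold 0.22, 0.18 to 0.27). H2az2 stood at 25.1 and 29.7 CPM (526 and 778 reads, 0.24, 0.08 to 0.40). Both were thus higher with IgE by nearly the same ratio. H2aj, a further H2A variant, had 1003 and 1363 reads (0.12, 0.00 to 0.24), and H2ax, whose protein is phosphorylated at DNA breaks, had 492 and 562 (-0.13, -0.31 to 0.05). The gene for macroH2A, Macroh2a1, which the naming rule does not include, lay at 0.00 (-0.05 to 0.06). The clustered H2A genes had 30 to 127 reads over both libraries. H2ac12 had 22 reads untreated and 8 with IgE (-1.71, -3.16 to -0.56), while Hist1h2af (0.15), Hist1h2ac (-0.13) and Hist1h2ail1 (-0.21) had intervals that include 0. Summed over the 9 H2A names the log2 ratio was 0.19 (0.15 to 0.23), of which H2az1 made up 75.5% of the reads, and without it 0.08 (0.00 to 0.16).

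H2B was represented by 6 clustered genes with few reads. Hist3h2ba had the most, 29 untreated and 63 with IgE (log2 fold 0.79, 0.14 to 1.48). Hist1h2bq had 6 and 20 reads (1.35, 0.05 to 3.02), and Hist1h2bc had 15 and 8 (-1.17, -2.68 to 0.10). The H2B genes thus spread in both directions, with Hist1h2bo (-0.12) and H2bc18 (-0.04) near 0. Added together they had 140 reads untreated and 186 with IgE, a log2 ratio of 0.09 (-0.24 to 0.41) that was -0.17 (-0.56 to 0.21) without Hist3h2ba. H2A and H2B copies are alike in sequence, and the counting of shared reads is not given in the sources used here, so single copies are uncertain. The sum over all 11 clustered H2A and H2B names was 300 reads untreated and 362 with IgE, a log2 ratio of -0.05 (-0.28 to 0.17).

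The linker histones were led by H1f0, the H1.0 gene that is known for high levels in cells that divide little. It stood at 592 CPM untreated and 551 with IgE (12407 and 14453 reads, log2 fold -0.10, -0.14 to -0.07), so that it was slightly lower where H3f3a and H2az1 were slightly higher. H1f2, the most counted clustered histone, was at 98.3 and 94.6 CPM (-0.06, -0.14 to 0.03). H1f4 had 50 and 79 reads (0.33, -0.19 to 0.88), and H1f5 had 42 and 65 (0.30, -0.27 to 0.90). H1f1 had the largest log2 fold of all histones, at 4 reads untreated and 21 with IgE (1.96, 0.50 to 4.07). The sum over the 5 H1 names was lower with IgE, at -0.09 (-0.12 to -0.06), with 84.8% of the reads from H1f0, and without H1f0 it was -0.03 (-0.11 to 0.05). The only H4 name over the minimum, H4f3, had 65 and 63 reads (-0.36, -0.89 to 0.15). RefSeq lists an H1 name among the synonyms of H4f3 and an H3 description among those of Hist1h2ail1, so the class of both is unsure.

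**Figure D2:**
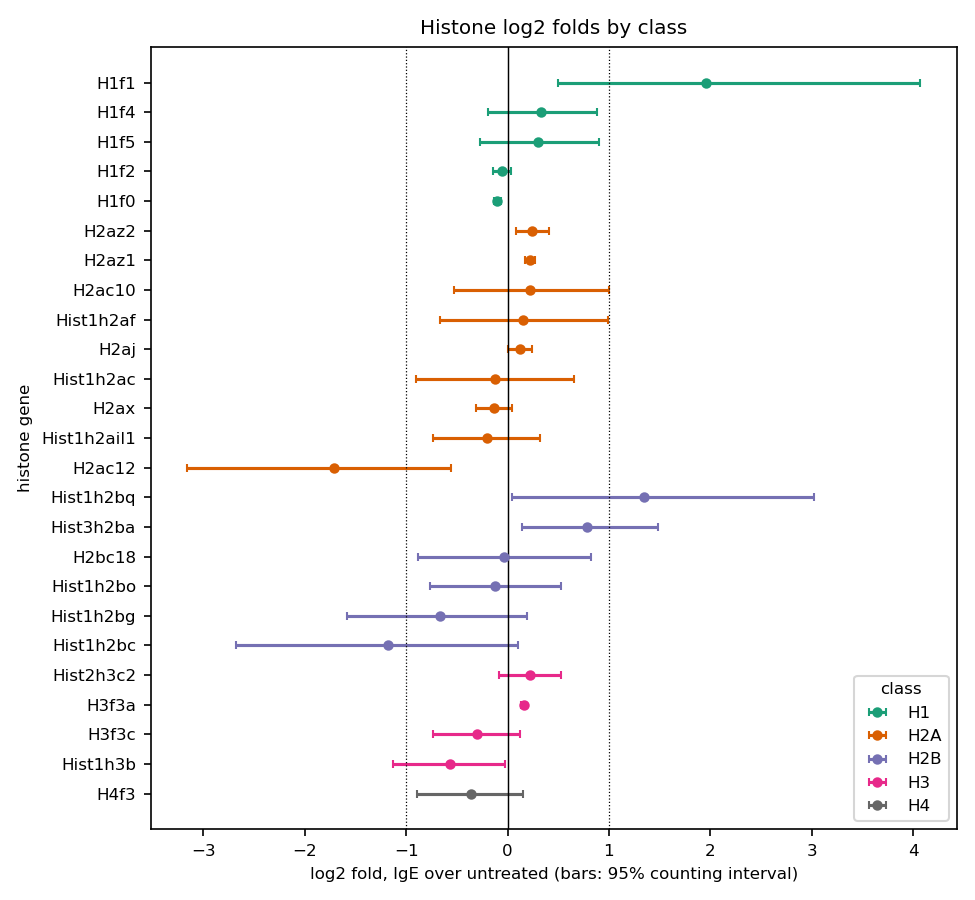
Log2 fold of IgE over untreated for the 25 histone genes, grouped by class, with 95% counting intervals and dotted lines at a 2-fold difference. The variants with many reads (H3f3a, H2az1, H2az2, H1f0) have short bars between -0.14 and 0.40, and the 4 points beyond the dotted lines have long bars.

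In the authors' deposited table, H1f1 and H2ac12 were the members that entered the selected list. Their adjusted p in the authors' deposited table was 0.505 and 0.408, with 1 library per condition behind it. The minimum of 20 reads left out 7 histone names. Just outside it were Hist1h2an (7 and 12 reads) and H3c1 (11 and 8), and just inside were Hist1h2bc and H1f1. Hist1h2ao (7 and 7), Hist1h4m (9 and 5) and Hist1h2ak (7 and 6) were further below. The testis-type H1f6 had 1 read untreated and 0 with IgE, and the oocyte-type H1f8 had 0 in both, which allows up to 0.143 CPM untreated and 0.114 CPM with IgE (3 reads).

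None of the 82 enzymes was 2-fold apart in either direction, against 2.63% of all genes. Most enzymes have many reads (73 have 500 or more), and of the 8369 genes with as many only 0.0478% were 2-fold apart, so the count of 0 does not set the enzymes apart. Their folds were small but uneven in sign: 58 of 82 lay below 0 (70.7%), against 49.7% of all genes, and the median was -0.08, beside 0.00 for all genes. For 36 enzymes (43.9%) the counting interval lay wholly below 0 and for 5 wholly above, against 19.1% and 19.4% of all genes. Enzymes had more reads than most genes (median 3899.5, against 1402.5), which narrows the interval. Within the class of 2000 or more reads, 33 of 61 enzymes had an interval below 0 (54.1%), against 28.3% of 5079 genes, and 4 had one above (6.56%), against 26.1%. The median in that class was -0.12 for enzymes and -0.01 for all its genes. With 1 library per condition, a shift of this size cannot be told apart from variation between cultures or library preparations.

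**Figure D3:**
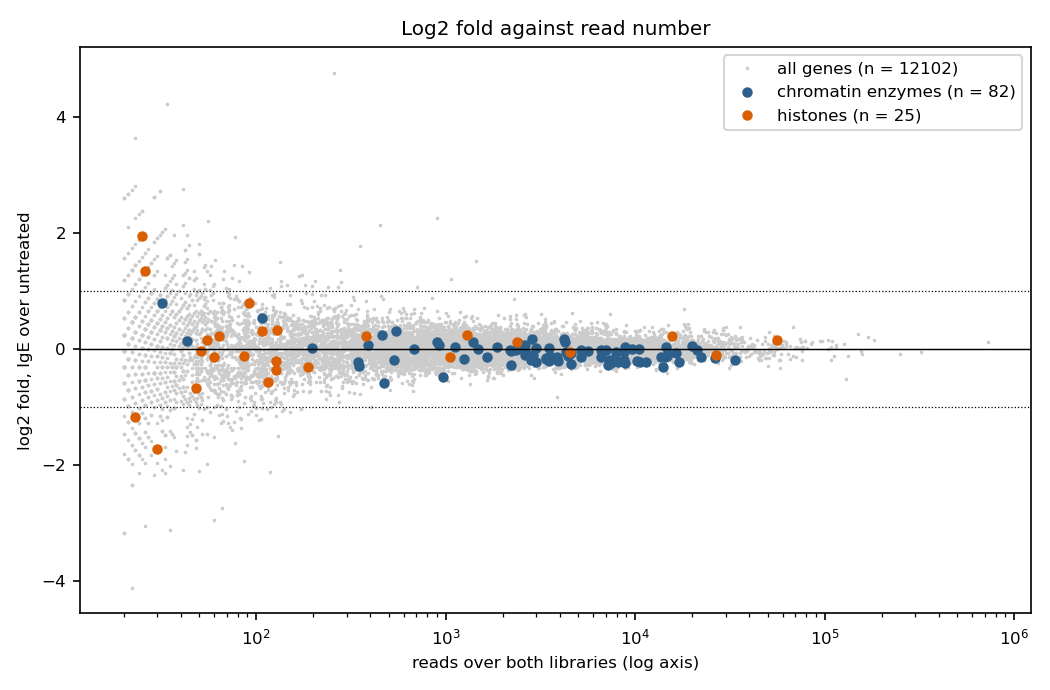
Log2 fold against reads over both libraries (log axis) for all 12102 genes (grey), the 25 histones (orange) and the 82 enzymes (blue), with dotted lines at a 2-fold difference. Enzymes with 2000 or more reads gather just below 0, with a median of -0.12, and the histones beyond 2-fold lie at the left among genes with few reads.

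H3K4 methylation marks active promoters and enhancers, and most of it is written by enzymes of the SET1 and MLL type. Of these, all 6 counted (Kmt2a to Kmt2d, Setd1a and Setd1b) lay below 0, with a median of -0.24 and an interval below 0 in each, against 28.3% of genes with 2000 or more reads. Setd7, which also methylates H3K4 but is of another type, was level at -0.01 (-0.13 to 0.11). This subgroup and the ones named below were drawn after the values were seen, so their counts are a description only. Kmt2d, an enhancer methyltransferase, went from 334 to 271 CPM (7001 and 7100 reads, log2 fold -0.30, -0.35 to -0.25), the lowest of the Kmt and Setd names. Kmt2b went from 169 to 141 CPM (-0.27, -0.33 to -0.20), Kmt2a from 171 to 146 (-0.23, -0.30 to -0.17) and Setd1a from 107 to 89.8 (-0.25, -0.34 to -0.17). Setd1b (-0.16) and Kmt2c (-0.14) were closer to 0. Kmt2e, a family member without clear methyltransferase activity and the most counted Kmt, lay at -0.12 (-0.17 to -0.07). The H4K20 methyltransferases were nearer level, with Kmt5a at -0.06 (-0.12 to 0.01), Kmt5b at -0.10 (-0.22 to 0.01) and Kmt5c at 0.08 (-0.11 to 0.27). Setd2, which trimethylates H3K36 in transcribed genes, went from 306 to 277 CPM (-0.14, -0.19 to -0.09), and Setd5, the most counted Setd, lay at -0.08 (-0.13 to -0.03). Setd6, which methylates the NF-kappaB subunit RelA, was the highest Setd at 0.12 (-0.07 to 0.32), and the actin methyltransferase Setd3 lay at -0.04 (-0.11 to 0.02). In all, 7 of 8 Kmt names and 6 of 8 Setd names were below 0, against 49.7% of all genes, with medians of -0.13 and -0.06.

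The acetyltransferases had a median of -0.01, with 5 of 8 below 0, against 49.7% of all genes. Kat6a, which acetylates H3, was the lowest and the most counted, at 243 CPM untreated and 209 with IgE (5095 and 5484 reads, -0.22, -0.27 to -0.16). Its paralogue Kat6b lay at -0.16, from 590 and 659 reads. Kat2a, the GCN5 enzyme, was at -0.14 (-0.22 to -0.06), while Kat2b, or PCAF, was at -0.02 (-0.13 to 0.09). Kat7 (0.00, -0.06 to 0.06), Kat8 (0.02) and Kat5 (0.04, -0.09 to 0.18), the TIP60 enzyme, were level within counting error.

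The demethylases, with 18 names the largest family, had a median of -0.05, with 12 below 0 and 6 above. Of all genes 49.7% lay below 0. Kdm6a, which removes H3K27 methylation, went from 83.2 to 93.7 CPM (1744 and 2456 reads, 0.17, 0.08 to 0.26), and its paralogue Kdm6b, known as an inducible gene in macrophages, lay at -0.14 (770 and 876 reads, -0.28 to 0.00). Kdm1a, the LSD1 enzyme, was at 0.13 (0.04 to 0.22). Kdm8 was at 10.3 and 12.7 CPM (215 and 334 reads, 0.31, 0.06 to 0.57). These 3 were the demethylases with an interval above 0, against 19.4% of all genes and 26.1% of those with 2000 or more reads. Intervals below 0 were found for 6: Kdm2a (-0.19), Kdm2b (-0.14), Kdm4a (-0.19), Kdm4b (-0.23, -0.33 to -0.12), Kdm5b (-0.13) and Kdm5c (-0.21, -0.28 to -0.15). An interval below 0 was found for 19.1% of all genes and 28.3% of those with 2000 or more reads. The 6 and the 3 intervals therefore do not set the demethylases apart. Kdm5a, the most counted demethylase, was at 185 and 189 CPM (0.03, -0.03 to 0.09), and Kdm5d at 31.2 and 31.3 CPM. The lowest value was that of Kdm7a, with 172 and 175 reads (-0.30, -0.61 to 0.01). The highest log2 fold of all enzymes belonged to Kdm4d, at 10 and 22 reads (0.79, -0.32 to 2.06), the one enzyme past 1.5-fold, against 7.17% of all genes. With 32 reads over both libraries it lies among the genes with 20 to 99 reads, of which 38.7% were past 1.5-fold, against 0.406% of those with 500 or more.

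Of the deacetylases, Hdac4 and Hdac5 stood lowest, and the others had intervals that include 0. The class I enzymes lay between 0.03 and 0.10. Hdac1 went from 305 to 312 CPM (6389 and 8173 reads, 0.03, -0.01 to 0.08). Hdac2 lay at 0.08, Hdac3 at 0.10 (-0.01 to 0.22) and Hdac8 at 0.07. Class IIa enzymes shuttle between nucleus and cytoplasm under phosphorylation. Hdac5 went from 12.3 to 8.20 CPM (257 and 215 reads, log2 fold -0.58, -0.85 to -0.31), and Hdac4 from 24.5 to 17.5 CPM (513 and 460 reads, -0.48, -0.66 to -0.30). These were the 2 lowest of the 82 enzymes, and the only ones with fewer reads in the IgE library although that library was the larger. Hdac7, the third of the class, lay at -0.10 (1335 and 1553 reads, -0.21 to 0.00). In the authors' deposited table the adjusted p was 0.618 for Hdac5 and 0.843 for Hdac4. The class IIb enzymes were level, with the tubulin deacetylase Hdac6 at -0.01 (-0.08 to 0.06) and Hdac10 at 0.02 (-0.40 to 0.44). Hdac1l, named as an Hdac1-like gene, had 18 and 25 reads (0.15, -0.78 to 1.11). The family median was 0.02.

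**Figure D4:**
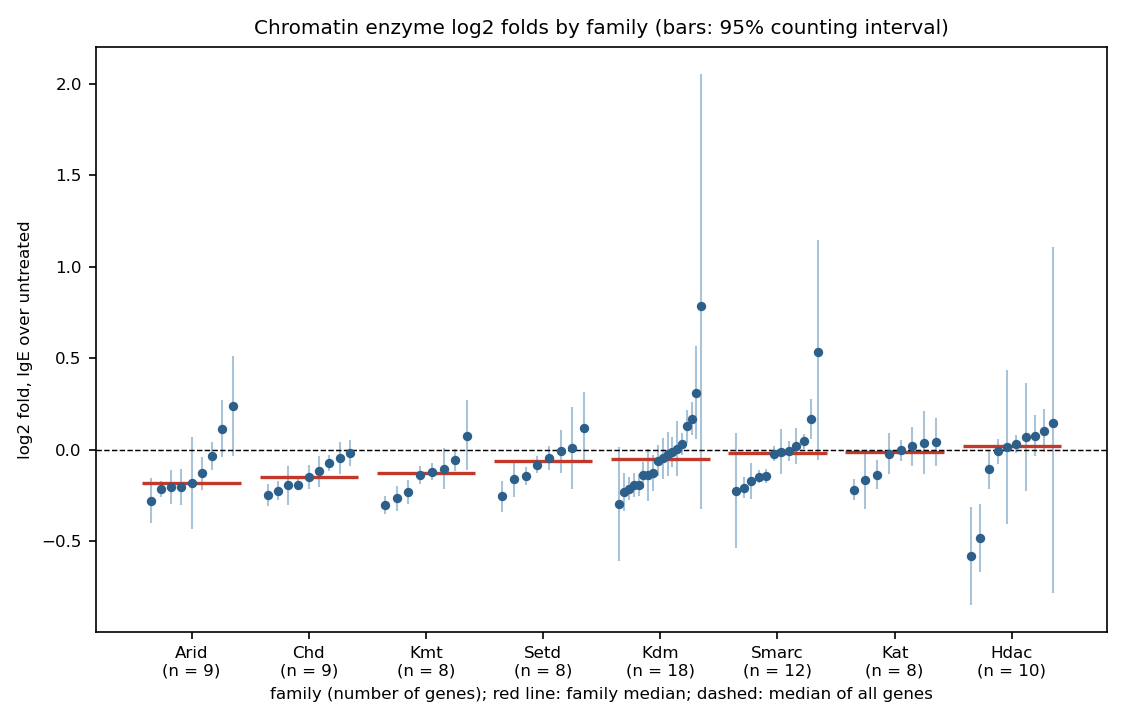
Log2 fold of each of the 82 enzymes with its 95% counting interval, sorted within family, with the family median in red and the median of all genes dashed. All 9 Chd points lie below 0, and Hdac5 and Hdac4 stand lowest at -0.58 and -0.48.

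Among the ATP-dependent remodellers, all 9 Chd genes lay below 0, with a median of -0.15, and 7 had an interval below 0. All 9 had over 2000 reads, and of all genes with as many 52.8% lay below 0 and 28.3% had an interval below 0. Chd4, the ATPase of the NuRD corepressor and the most counted enzyme, stood at 768 CPM untreated and 673 with IgE (16106 and 17648 reads, -0.19, -0.22 to -0.16). Its paralogue Chd3 was at 262 and 225 CPM (-0.22, -0.28 to -0.17). Chd7 was the lowest, at 206 and 174 CPM (-0.25, -0.31 to -0.18), and Chd8 the highest, at 141 and 139.9 CPM (-0.02, -0.09 to 0.05). Chd1, which binds H3K4 methylation, lay at -0.07 (-0.11 to -0.03).

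SWI/SNF is a large remodeller built around either of the ATPases Smarca4 (BRG1) and Smarca2 (BRM). Of 12 subunits counted under the Smarc and Arid names, 9 lay below 0, against 49.7% of all genes, with a median of -0.14. Smarca4 stood at 588 and 532 CPM (12335 and 13948 reads, -0.15, -0.18 to -0.11), whereas Smarca2 had 167 and 179 reads (-0.22, -0.53 to 0.09). The core subunits Smarcc1 (-0.14, -0.18 to -0.10) and Smarcc2 (-0.21, -0.26 to -0.15) were lower, and Smarcb1 (0.02) and Smarce1 (-0.01) level. The 3 alternative Smarcd subunits had different signs, with Smarcd1 at 0.17 (0.06 to 0.28), Smarcd2 at -0.17 (-0.27 to -0.07) and Smarcd3 at 0.53 on 38 and 69 reads (-0.05 to 1.15). The DNA-binding subunits Arid1a (390 and 336 CPM, -0.21, -0.26 to -0.17), Arid1b (-0.20, -0.29 to -0.11) and Arid2 (-0.13, -0.22 to -0.04) all had intervals below 0. Smarca5, the ATPase of the ISWI remodellers, was slightly higher with IgE, at 416 and 430 CPM (0.05, 0.01 to 0.09), and Smarcad1 was at -0.02 (-0.06 to 0.02). Outside SWI/SNF, Arid5b was the lowest Arid gene (1094 and 1129 reads, -0.28, -0.40 to -0.16) and Arid3b the highest (187 and 276 reads, 0.24, -0.03 to 0.51). The median was -0.18 for the 9 Arid genes and -0.02 for the 12 Smarc genes.

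Chromatin genes outside the naming rule were given by lists. Of 114 names listed, some of them older aliases of other listed genes, 105 were over the minimum. The median log2 fold of the 105 was -0.06, beside 0.00 for all genes. None was 2-fold apart in either direction, against 2.63% of all genes and 0.0478% of those with 500 or more reads. Below 0 lay 71, against 49.7% of all genes and 50.4% of those with 500 or more reads. DNA methylation genes were lowest as a group, with 6 of 6 below 0 and a median of -0.15, from Tet1 (-0.33, -0.49 to -0.17) to Tet3 (-0.07), and the maintenance methyltransferase Dnmt1 at -0.16 (-0.19 to -0.12). Of 14 corepressor genes 9 lay below 0, and the highest was Mbd2 (0.26, 0.14 to 0.38), a reader of methylated DNA. The 12 other remodeller genes had a median of -0.11, with Bptf lowest (-0.26, -0.31 to -0.21) and Ss18 highest (0.02). Acetyltransferases and acetyl-lysine readers ranged from Brd3 (-0.19) to Hat1 (0.09), with the coactivators Crebbp at -0.18 (-0.27 to -0.09) and Ep300 at -0.16 (-0.22 to -0.10).

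The 16 Polycomb genes, which lead to H3K27 methylation and silencing, had a median of 0.03, with Pcgf1 highest (0.28, 0.01 to 0.55) and the methyltransferase Ezh2 at -0.04. Other methyltransferases had a median of -0.06, from Ehmt2 (-0.22) to Nsd3 (0.21), sirtuins a median of -0.09, from Sirt5 (-0.18) to Sirt1 (0.09), and the other demethylases a median of -0.12, from Phf2 (-0.39, -0.52 to -0.27) to Jmjd6 (-0.03). Histone chaperones had a median of 0.00, from Daxx (-0.23), an H3.3 chaperone, to Asf1a (0.22). Of the genes that process histone messages, the stem-loop binding protein gene Slbp was at 0.15 (0.08 to 0.23), Lsm11 was highest at 0.22 (0.04 to 0.39) and Npat, the activator of the histone clusters, was lowest at -0.09 (-0.18 to -0.01). Of 27 S phase genes over the minimum, 17 lay above 0 and 10 below, with a median of 0.02 and Cdt1 lowest (-0.16). Among all genes 49.7% lay below 0. The clustered histones, whose messages are made in S phase, summed to a log2 ratio of -0.03 (-0.11 to 0.04). H1f2 made up 74.6% of those reads, and without it the ratio was 0.03 (-0.11 to 0.18).

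The size of the gene moved with the log2 fold across the 10470 of 12102 genes (86.5%) that had a RefSeq gene span, introns included. By that span the median log2 fold of all such genes was 0.10 under 2 kb (312 genes), 0.05 from 2 to 10 kb, 0.00 from 10 to 50 kb and -0.04 at 50 kb or more (2808 genes). Enzyme genes are long, with a median span of 47194.5 bases against 23515.5 for all genes with a span, and their medians were 0.04 from 2 to 10 kb (7 genes), -0.01 from 10 to 50 kb (36 genes) and -0.14 at 50 kb or more (39 genes). In the longest class the enzymes were therefore lower than its median gene, and in the other 2 classes they lay close to it. The histones did not keep to that order. The 18 of 25 that span under 2 kb had a median of -0.11, where all genes of that span had 0.10. Those from 2 to 10 kb had a median of 0.09 (4 genes), and those from 10 to 50 kb 0.24 (3 genes). Of the 18 short ones only 4 had 500 or more reads, so few reads limit that median. The part of gene size in the values of either group was not tested.

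**Figure D5:**
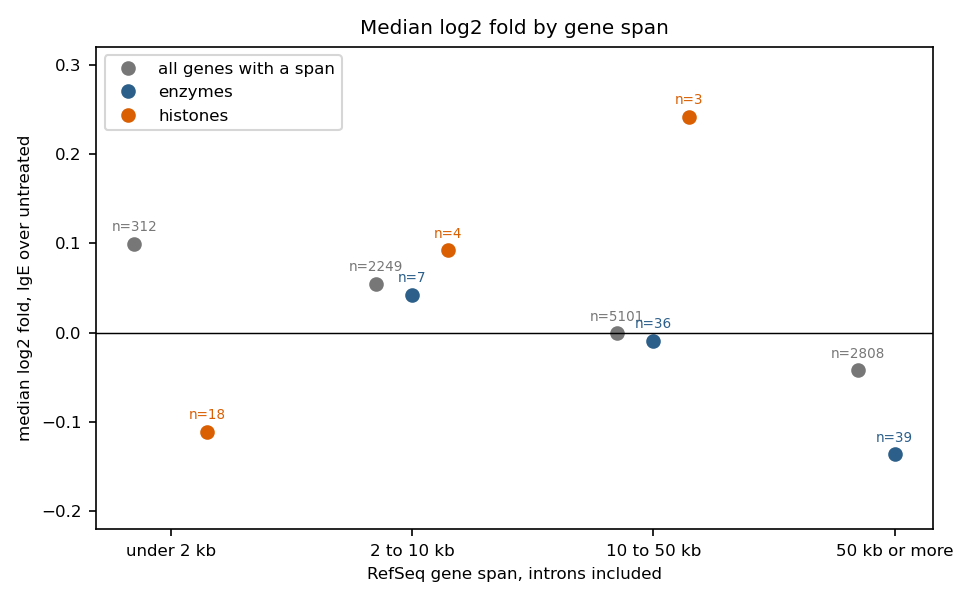
Median log2 fold of IgE over untreated in 4 classes of RefSeq gene span for the 10470 genes with a span (grey), enzymes (blue) and histones (orange), with the number of genes at each point. The grey points go from 0.10 to -0.04 as span increases, and the enzymes of 50 kb or more lie lower, at -0.14.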

How the data were processed

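Poly(A)-selected RNA was sequenced from 1 untreated and 1 IgE-treated library. The authors deposited raw read counts per gene name, and their own comparison of the 2 libraries as a log2 fold, a p-value and an FDR, per the file headers. Build rn6, HISAT2 2.1.0, fastp 0.23.0 and DESeq2 1.18.1 are listed, without roles, in the submitters' processing notes. How reads were counted, and whether by strand, is not given in the sources used here. An exact test in edgeR with the dispersion fixed at 0.01 gave the authors' log2 folds and p-values back within 4.67e-08 and 3.47e-08.

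Identical rows were kept once (14913 of 16990). Log2 CPM were computed in R 4.3.3 with edgeR 4.0.16, from TMM-scaled library sizes and with 0.5 prior counts. Genes under 20 reads over both libraries were left out. Intervals are Clopper-Pearson. The calculation was tested on simulated data. The members and lists were chosen with earlier results of these data known. Named genes were members 2-fold apart, the 4 most counted histones, the highest and lowest of each class, family or list, the most counted enzyme of each family, and the 5 highest and 5 lowest enzymes with 500 or more reads; the others were chosen after their values were seen. Some list extremes are not reported here. Gene span (RefSeq, GRCr8) replaced the planned protein length. Other settings tried were scaling by size factors (DESeq2 1.42.0) or by plain totals, 5 prior counts, other minimums and a 1.5-fold rule.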

Additional observations from a re-analysis of the deposited data

How the results depend on the processing

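The number of histones at least 2-fold apart depended on how few reads were admitted: 2 higher and 2 lower became 1 and 1 with 5 prior counts. A minimum of 100 reads left 0 and 0, and no minimum gave 2 and 4. Asking also that the counting interval exclude 0, an alternative added after seeing the data, left 2 higher and 1 lower. For the enzymes the 1.5-fold rule gave 1 higher and 0 lower in place of 0 and 0. Over all genes, 161 higher and 157 lower became 104 and 100 with 5 prior counts, 855 and 875 with no minimum, 21 and 15 with a minimum of 100 reads, and 436 and 432 with the 1.5-fold rule. Without the most counted gene of the class, also added after seeing the data, the pooled log2 ratio was -0.0279 for H1, 0.0779 for H2A and -0.0605 for H3. The enzyme median ran from -0.10 to -0.08 over its alternatives. The histone median changed sign, to 0.03 with a minimum of 100 reads and to 0.14 without H3f3c and the 2 names of unsure class. For the 41 members named by rule, all 123 alternative folds stayed within their counting interval with the same sign. Other members named in the text are not among these counts. Library totals moved every log2 fold by 0.0059 at most, and size factors by about 0.0016. The prior of 5 counts mainly moved genes with few reads, whose intervals are wide. The 123 folds thus had little room to leave their intervals, and their count is a weak check. No paired analysis was possible because only 1 library stands for each condition, which also means that leaving a library out gives no comparison. Few reads limit the clustered histones, and the lack of replicate cultures limits all values.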
